A study of Arabidopsis thaliana with 24 samples.

Results

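Transcripts of 10 genes that break down leaf starch were followed in detached Arabidopsis leaves kept in darkness. The members are given by locus, by a rule that sets no threshold on their values, and all 10 were found among the 32627 genes of the arrays. They encode the enzymes that phosphorylate and dephosphorylate the starch granule (GWD1, AT1G10760; PWD, AT5G26570; SEX4, AT3G52180), β-amylases (BAM1, AT3G23920; BAM3, AT4G17090; BAM5, AT4G15210), a debranching enzyme (ISA3, AT4G09020), and the enzymes and the carrier that handle the released sugars (DPE1, AT5G64860; MEX1, AT5G17520; DPE2, AT2G40840). In current annotation GWD1 also carries the symbol SEX1, BAM3 the symbol CT-BMY and MEX1 the symbol RCP1.

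Leaves store part of the carbon fixed by day as starch granules in the chloroplast and degrade them at night. GWD1 and PWD add phosphate to the granule surface, which opens it to attack, SEX4 takes the phosphate off again, β-amylases cut maltose from the chain ends, ISA3 removes branches, and DPE1 recycles the short glucans that are left. Maltose leaves the chloroplast through MEX1 and is converted in the cytosol by DPE2.

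The series comprised 24 single-channel NimbleGen arrays, with 2 replicates for each of 3 genotypes at 0, 1, 2 and 3 days after treatment (DAT), and it was made to compare ethylene and cytokinin signalling in dark-induced leaf senescence. Per the labels and methods, plants were 21 d old and grown in 16 h light and 8 h dark, and rosette leaves 3 and 4, 12 d past emergence (DAE), were detached and floated on 3 mM MES in the dark. The 0 DAT leaves are labelled as control, so detachment and darkness cannot be told apart in a change from 0 DAT. Col was the wild type. The ein2/ore3 plants carried a mutation in EIN2 and are insensitive to ethylene and the ahk3/ore12 plants carried a gain-of-function allele of the cytokinin receptor AHK3. Each mutant was represented by 1 allele, so the allele and other changes in that line cannot be told apart. Leaves for the arrays were taken at the same hour of the subjective day at every time point. All levels below are log2 of normalized intensity, and differences are on the same log2 scale.

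Replicates of a condition correlated across all genes with r between 0.965 and 0.995, and their median difference in size lay between 0.13 and 0.30. Array medians lay between 9.02 and 9.16, apart from ein2/ore3 at 2 DAT replicate 2, at 8.91. That array also had a summed intensity of 72581116 and a lowest intensity of 13.96, against at least 77974241 and 23.24 on the others. The median difference of all genes was -0.13 for ein2/ore3 at 2 against 0 DAT and -0.17 for ein2/ore3 against Col at 2 DAT. The counts at 2 DAT in ein2/ore3, of members and of all genes, include any such shift. EIN2 and AHK3 themselves gave levels of 13.20 to 13.72 and 12.59 to 13.25 over all arrays, so the transcript level does not show which plants carried which allele. Each of the 2 slides held the 12 arrays of 1 replicate number, and all 136 member differences that passed the test had the same sign on both slides. Those differences passed on the mean of the same 2 slides, so the shared sign is not a separate check. Sizes could still differ, as for BAM5 in ein2/ore3 from 0 to 2 DAT (-0.11 and -1.77). The 4 leaf mesophyll markers (RBCS1A, LHCB1.1, LHCB2.1 and CA1) were high at 0 DAT in every genotype, with a summed level of 17.18 to 17.27, and the 2 seed markers had a summed level between 8.88 and 9.47 on every array.

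In Col, most genes of starch breakdown fell in darkness and 1 rose. At 1 DAT 7 of the 10 genes were lower than at 0 DAT (limma over all 24 arrays, FDR under 0.05 over all genes), against 15% of all genes, and at 2 DAT the count was again 7 of 10, against 17.9%. At 3 DAT 8 of 10 were lower, against 19.3% of all genes, and BAM1 was higher, against 20.2% of all genes. It was also higher at 1 DAT (0.64) and 2 DAT (1.08), against 4324 and 5428 of 32627 genes. The median change of the 10 genes at 3 DAT was -2.20, and that of all genes 0.14. Because these are whole leaves, fewer cells of a type and less RNA per cell cannot be told apart. The markers moved too: all 4 mesophyll markers fell in Col, their summed level going from 17.20 to 17.27 at 0 DAT to 14.20 on both arrays at 3 DAT. Of the 4 phloem markers SUC2 was lower by -2.16, APL was higher by 0.69, and SEOR1 (-0.26) and AHA3 (-0.16) did not pass the test, and their summed level went from 15.33 to 15.40 at 0 DAT to 14.62 to 14.64 at 3 DAT. The part of a shift in cell types in the changes of the starch genes was not tested.

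**Figure D1:**
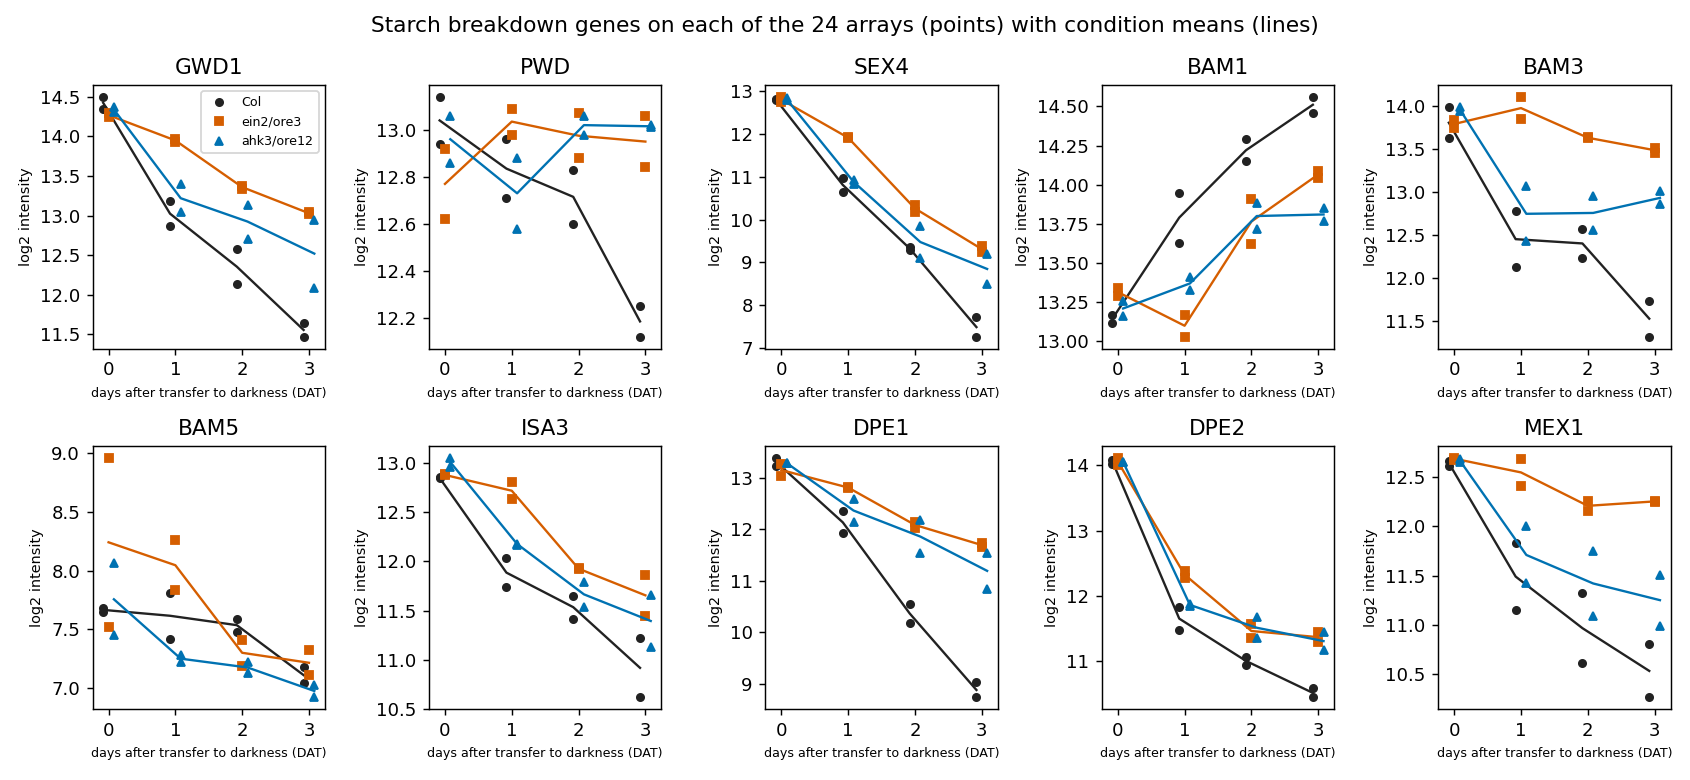
Log2 intensity of each of the 10 starch breakdown genes (y axis, scaled per gene) against days after treatment (x axis). Points are single arrays and lines join condition means of 2 replicates, in black for Col, orange for ein2/ore3 and blue for ahk3/ore12. The 3 genotypes start close together at 0 DAT for every gene but BAM5, where the ein2/ore3 arrays are at 7.52 and 8.96. Col ends lowest for GWD1, PWD, SEX4, BAM3, ISA3, DPE1, DPE2 and MEX1, and highest for BAM1.

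SEX4, the phosphoglucan phosphatase, showed the largest change of the 10 genes in Col. Its levels were 12.82 and 12.79 at 0 DAT, 10.64 and 10.98 at 1 DAT, 9.29 and 9.36 at 2 DAT, and 7.26 and 7.71 at 3 DAT. Each day was lower than the one before on both arrays with no overlap. The fall from 0 to 3 DAT was 39.9-fold (log2 -5.32, SE 0.234, adjusted p = 1.3e-10). SEX4 was measured through 2 transcript variants, and both fell, the first from 12.58 to 6.60 and the second from 10.01 to 6.33 in Col. The dimmest 25% of genes lay below a mean level of 7.01, so both variants ended in the dim range, and without detection calls the fold may be a lower bound.

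GWD1, which starts granule phosphorylation, fell more gradually. Its Col levels were 14.50 and 14.35 at 0 DAT, 12.87 and 13.18 at 1 DAT, 12.13 and 12.58 at 2 DAT, and 11.47 and 11.64 at 3 DAT. The difference from 0 DAT was -1.40 at 1 DAT and -2.87 at 3 DAT (SE 0.232, adjusted p = 8.3e-08), a 7.31-fold fall. PWD, which acts on chains that GWD1 has already phosphorylated, moved little and late. It stood at 13.14 and 12.94 at 0 DAT, 12.71 and 12.96 at 1 DAT, 12.60 and 12.83 at 2 DAT, and 12.12 and 12.25 at 3 DAT. The replicates of the first 3 time points lay close together, and those at 3 DAT lay below all of them, with a difference of -0.86 from 0 DAT (SE 0.149, adjusted p = 2.4e-04). At 1 and 2 DAT the differences were -0.21 and -0.33 and did not pass the test.

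The β-amylases differed from each other. BAM3, the main chloroplast β-amylase of night-time starch breakdown, was at 13.63 and 13.99 at 0 DAT, and at 12.13 and 12.78 after 1 d of darkness. It was at 12.24 and 12.57 at 2 DAT and fell further to 11.32 and 11.74 at 3 DAT. The 3 DAT difference was -2.28 (SE 0.239, adjusted p = 1.4e-06), and the step from 1 to 2 DAT was -0.05. BAM1, a second chloroplast β-amylase known from guard cells and from stressed leaves, went the other way. Its levels rose from 13.12 and 13.17 at 0 DAT to 13.95 and 13.63 at 1 DAT, 14.29 and 14.15 at 2 DAT, and 14.56 and 14.46 at 3 DAT. That was a 2.58-fold rise (log2 1.37, SE 0.124, adjusted p = 3.0e-07), and the groups of successive days did not overlap. The 4 guard cell markers had a summed level of 12.36 to 12.41 at 0 DAT and 12.31 to 12.32 at 3 DAT in Col, with 1 of the 4 called lower and none higher.

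BAM5 encodes a β-amylase that lies outside the chloroplast, mainly in phloem, and its signal was dim throughout. Over the 24 arrays it ranged from 6.92 to 8.96 with a mean of 7.49, just above the bound of the dimmest 25% of genes. That level sums 2 transcript variants. Condition means of the second, 5.97 to 6.96, all lay below the bound. Those of the first, 5.93 to 7.46, lay above it only in ein2/ore3 at 0 and 1 DAT. In Col the level of the gene went from 7.65 and 7.68 at 0 DAT to 7.04 and 7.18 at 3 DAT, a difference of -0.55 that did not pass the test (95% interval -1.25 to 0.14, adjusted p = 0.21). It passed without either 0 DAT array of ein2/ore3 (adjusted p = 0.0347 in both cases), a pair that was far apart for this gene, and with the Col arrays fitted alone (adjusted p = 0.0419).

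ISA3, the debranching enzyme of starch breakdown, was lower than at 0 DAT from 1 DAT on. Its levels were 12.85 and 12.84 at 0 DAT, 11.74 and 12.03 at 1 DAT, 11.42 and 11.65 at 2 DAT, and 10.62 and 11.22 at 3 DAT. The change over 3 days was -1.93 (SE 0.203, adjusted p = 1.5e-06), or 3.80-fold, and the replicates at 3 DAT differed by 0.60.

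DPE1, the chloroplast disproportionating enzyme, fell on each of the 3 days. It stood at 13.23 and 13.39 at 0 DAT and 11.92 and 12.35 at 1 DAT, then dropped to 10.18 and 10.56 at 2 DAT and 8.74 and 9.03 at 3 DAT. The steps were -1.18, -1.76 and -1.48, each past the test, and the whole fall was 21.5-fold (log2 -4.43, SE 0.246, adjusted p = 1.4e-09). DPE2, which converts exported maltose in the cytosol, had its main step at once. Its levels were 14.09 and 14.03 at 0 DAT, 11.47 and 11.83 at 1 DAT, 10.94 and 11.06 at 2 DAT, and 10.44 and 10.58 at 3 DAT. Of its change of -3.55 by 3 DAT (SE 0.143, adjusted p = 5.7e-11), -2.41 was reached on the first day. MEX1, the maltose carrier between these enzymes, fell from 12.62 and 12.67 to 11.15 and 11.83 at 1 DAT, 10.61 and 11.32 at 2 DAT, and 10.26 and 10.80 at 3 DAT. Replicate 1 lay below replicate 2 at each of these times, and the 3 DAT difference was -2.11 (SE 0.296, adjusted p = 2.8e-05). The call at 1 DAT (-1.16) was lost without Col 1 DAT replicate 1 (-0.81, adjusted p = 0.0872).

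Between successive days fewer genes passed the test. From 1 to 2 DAT in Col SEX4 (-1.49), DPE1 (-1.76) and DPE2 (-0.65) passed the test as lower, 3 of 10 against 5.2% of all genes, and BAM1 passed as higher (0.43). From 2 to 3 DAT SEX4 (-1.84) and DPE1 (-1.48) were lower, 2 of 10 against 1.41% of all genes. An F-test for any change with time, fitted to the 8 arrays of Col after the methods of the study, called 7 of the 10 genes at FDR under 0.01, against 15.9% of all genes. PWD (adjusted p = 0.0312), MEX1 (adjusted p = 0.0186) and BAM5 (adjusted p = 0.118) were outside that threshold.

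**Figure D2:**
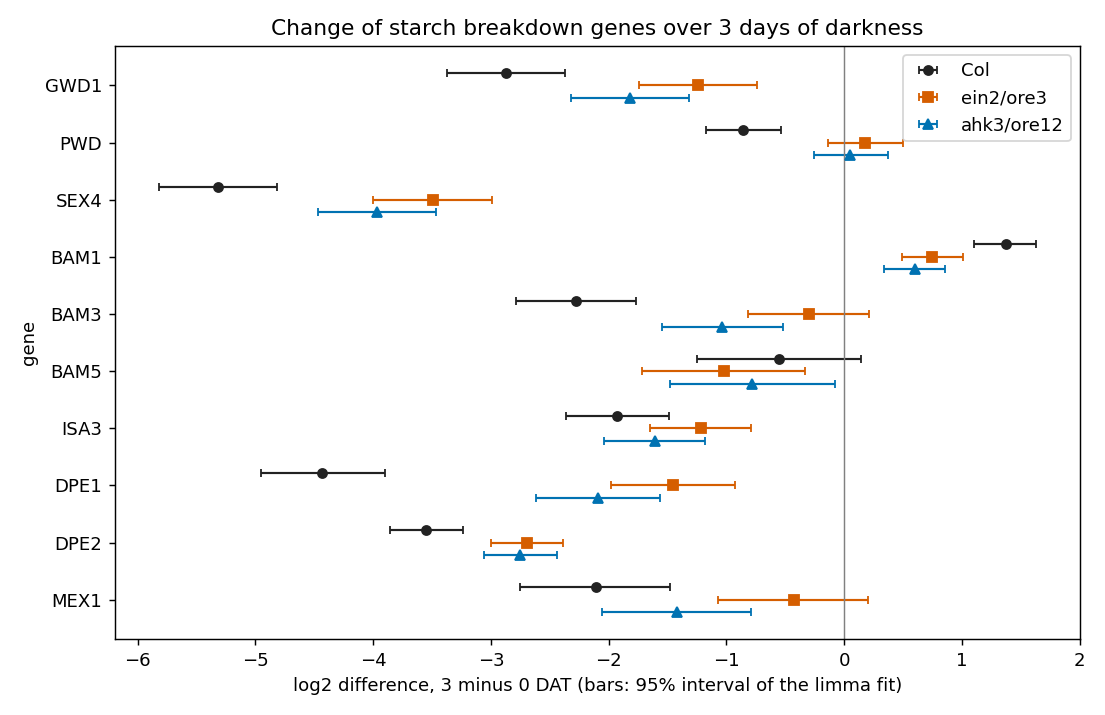
Log2 difference between 3 and 0 DAT (x axis) for each gene (y axis) in the 3 genotypes, with 95% intervals of the limma fit over 24 arrays. In Col the differences run from -5.32 for SEX4 to 1.37 for BAM1, and for 9 of the 10 genes, all but BAM5, both mutants lie nearer to 0 than Col.

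In ein2/ore3 fewer members passed the test on the first day. At 1 DAT SEX4 and DPE2 were lower than at 0 DAT, 2 of 10 against 8.87% of all genes, whereas at 2 DAT 6 of 10 were lower, against 16.1%, and at 3 DAT again 6 of 10, against 14.6%. BAM1 was higher at 2 DAT (0.45), against 4782 of 32627 genes, and at 3 DAT, against 17.8%. Its 2 DAT call was lost with the ein2/ore3 arrays fitted alone and at FDR under 0.01. It was also lost without ein2/ore3 0 DAT replicate 1 (0.43) or 2 DAT replicate 1 (0.3). The median change of the 10 genes at 3 DAT was -1.12, and that of all genes 0.02. GWD1 went from 14.30 and 14.24 at 0 DAT to 13.93 and 13.97, 13.38 and 13.34, and 13.04 and 13.02 on the following days, so that its 3 DAT arrays stood near the level of Col at 1 DAT. The change was -1.24 (SE 0.232, adjusted p = 5.9e-04), with no overlap between the days. SEX4 was at 12.87 and 12.74 at 0 DAT and still at 11.90 and 11.93 at 1 DAT, and reached 10.35 and 10.17 at 2 DAT and 9.24 and 9.38 at 3 DAT, a fall of 11.3-fold. Its call at 1 DAT (-0.89, adjusted p = 0.0112) was lost without ein2/ore3 0 DAT replicate 1 or without either 1 DAT array (adjusted p = 0.0794, 0.0668 and 0.053).

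ISA3, DPE1 and DPE2 ended above their final levels in Col. ISA3 was at 12.87 and 12.88 at 0 DAT, 12.63 and 12.80 at 1 DAT, 11.92 and 11.93 at 2 DAT, and 11.45 and 11.86 at 3 DAT (change -1.22, SE 0.203). DPE1 went from 13.27 and 13.03 to 12.82 and 12.80, 12.14 and 12.03, and 11.65 and 11.74, a change of -1.45 (SE 0.246) with each day below the one before. DPE2 took its main step on the first day here too, from 14.12 and 14.00 to 12.38 and 12.27, and then stood at 11.57 and 11.35 at 2 DAT and 11.44 and 11.29 at 3 DAT (change -2.69, SE 0.143).

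BAM3, MEX1 and PWD did not pass the test at any time in ein2/ore3. BAM3 was at 13.75 and 13.84 at 0 DAT, 13.85 and 14.11 at 1 DAT, 13.64 and 13.63 at 2 DAT, and 13.52 and 13.46 at 3 DAT, a change of -0.30 with a 95% interval of -0.82 to 0.21. MEX1 was at 12.70 and 12.68 at first, 12.41 and 12.69 at 1 DAT, 12.26 and 12.16 at 2 DAT, and 12.26 and 12.25 at the end (-0.43, interval -1.07 to 0.20). The intervals of both genes still allow a moderate fall. The 2 DAT difference of MEX1 (-0.48) passed with the ein2/ore3 arrays fitted alone (limma, adjusted p = 0.0494). PWD lay between 12.62 and 13.09 on all 8 arrays (0.18, interval -0.14 to 0.50). BAM1 was at 13.29 and 13.34 at 0 DAT, 13.03 and 13.17 at 1 DAT, 13.91 and 13.62 at 2 DAT, and 14.04 and 14.09 at 3 DAT, a change of 0.75 (SE 0.124, adjusted p = 2.0e-04). BAM5 was called lower at 2 DAT by -0.94 (adjusted p = 0.0398) and at 3 DAT by -1.02, from replicates of 7.52 and 8.96 at 0 DAT that differed by more than the change itself. Without the brighter of these arrays, replicate 2, the differences were -0.22 (adjusted p = 0.541) and -0.30 (adjusted p = 0.472). The 3 DAT call was also lost without either 3 DAT array (adjusted p = 0.0589 and 0.122), and the 2 DAT call with quantile normalization (-0.82, adjusted p = 0.0707), with median centring (-0.80, adjusted p = 0.0677), without moderation of the spread (adjusted p = 0.0611) and without any of 7 arrays in turn, so that 1 of the 6 members counted at each of these times rests on this gene.

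In ahk3/ore12 the count of members that fell did not grow after the first day. At 1 DAT 7 of the 10 genes were lower than at 0 DAT, against 12.3% of all genes, with the same count at 2 DAT, against 12.3%, and at 3 DAT, against 13.9%. BAM1 was higher at 2 DAT (0.59), against 5823 of 32627 genes, and at 3 DAT, against 20.4%. The median change of the 10 genes at 3 DAT was -1.52, and that of all genes -0.06. BAM3 fell from 13.95 and 13.99 to 12.43 and 13.07 at 1 DAT, and then stood at 12.56 and 12.96 at 2 DAT and 12.86 and 13.01 at 3 DAT, a difference of -1.04 from 0 DAT (SE 0.239, adjusted p = 0.00294). The arrays of the last 3 time points overlapped. DPE2 dropped from 14.05 and 14.06 to 11.84 and 11.88 at 1 DAT and then moved to 11.35 and 11.67 and to 11.17 and 11.44 (change -2.75, SE 0.143).

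For every member but BAM5 replicate 2 lay above replicate 1 at 3 DAT in ahk3/ore12, by 0.01 for PWD up to 0.86 for GWD1. GWD1 was at 14.37 and 14.31 at 0 DAT, 13.04 and 13.40 at 1 DAT, 12.71 and 13.14 at 2 DAT, and 12.09 and 12.95 at 3 DAT (-1.82, SE 0.232, adjusted p = 1.6e-05). SEX4 went from 12.79 and 12.84 to 10.84 and 10.93, 9.11 and 9.84, and 8.49 and 9.20 (-3.97, SE 0.234), and all arrays in darkness lay below those at 0 DAT. DPE1 stood at 13.29 and 13.28, 12.14 and 12.59, 11.54 and 12.18, and 10.85 and 11.54 (-2.09, SE 0.246), with its 1 DAT call (-0.92) lost without ahk3/ore12 1 DAT replicate 1 (-0.70, adjusted p = 0.135) or either 0 DAT array (adjusted p = 0.0566 and 0.0508).

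The remaining members of ahk3/ore12 split by direction. ISA3 went from 12.96 and 13.05 at 0 DAT to 12.17 and 12.18, 11.54 and 11.79, and 11.13 and 11.66 (-1.61, SE 0.203). MEX1 went from 12.66 and 12.69 to 11.42 and 12.00, 11.09 and 11.75, and 10.99 and 11.51 (-1.42, SE 0.296), and its 1 DAT call (-0.96) was lost without 1 DAT replicate 1 (-0.67, adjusted p = 0.249) or either 0 DAT array, and its 2 DAT call (-1.25) without 2 DAT replicate 1 (-0.92, adjusted p = 0.0707). PWD was at 13.06 and 12.86, 12.58 and 12.88, 12.98 and 13.06, and 13.01 and 13.02, and did not pass the test at any time (3 DAT interval -0.26 to 0.37). BAM1 rose from 13.26 and 13.16 to 13.41 and 13.33, 13.88 and 13.72, and 13.77 and 13.85 (0.60, SE 0.124, adjusted p = 0.00123). BAM5 ranged from 6.92 to 8.06 in this genotype, and its 3 DAT difference of -0.78 passed only without either 0 DAT array of ein2/ore3 or with the ahk3/ore12 arrays fitted alone. From 2 to 3 DAT 0 of the 10 members passed the test in ein2/ore3, against 0.417% of all genes, and 0 of 10 in ahk3/ore12, against 0.356% (limma, with 2 of 10 at an unadjusted p under 0.05 in each). These counts are near the share of all genes.

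Before darkness the members of the mutants were close to those of Col. At 0 DAT 0 of the 10 genes passed the test in ein2/ore3 (0.288% of all genes) or in ahk3/ore12 (0.0245%), 0 had an unadjusted p under 0.05 in limma, and 0 were called without moderation of the spread. The 0 DAT differences lay between -0.27 and 0.57 in ein2/ore3 and between -0.09 and 0.16 in ahk3/ore12. The comparisons with the 2 mutants share the Col arrays and are not independent of each other.

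**Figure D3:**
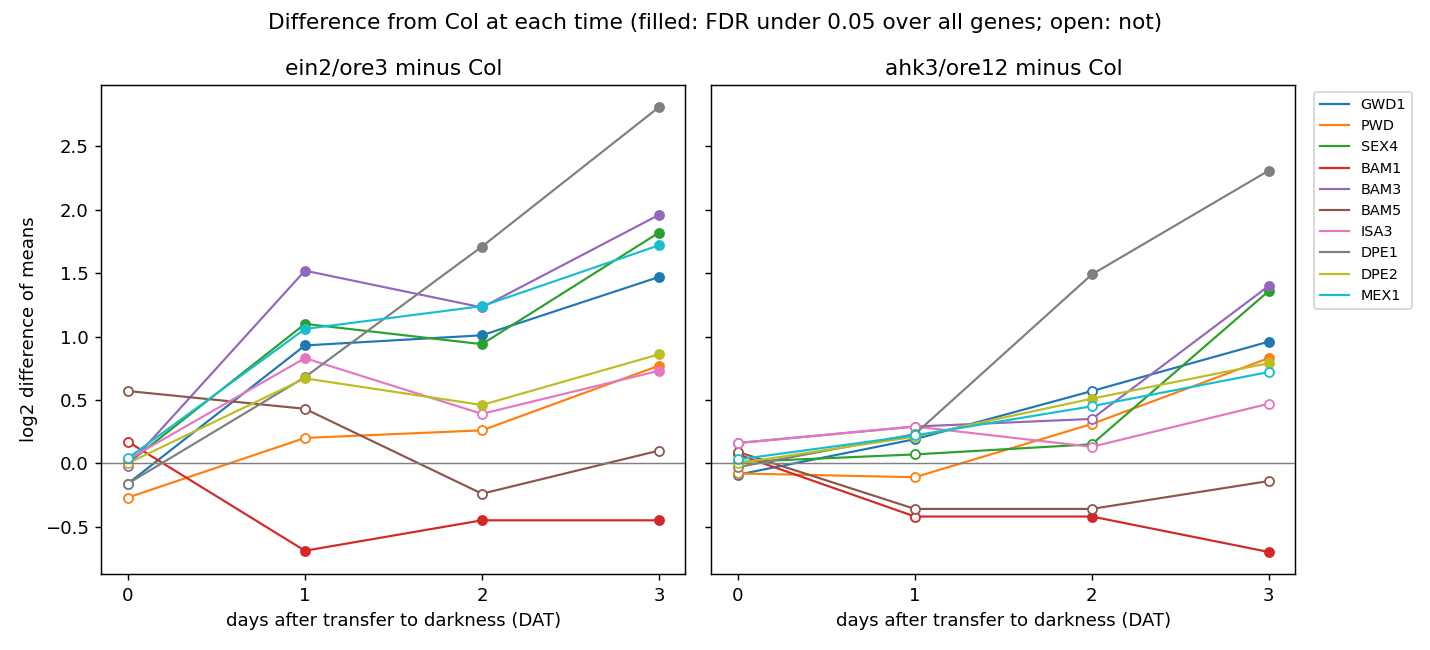
Log2 difference of condition means, mutant minus Col (y axis), at 0 to 3 DAT (x axis), for ein2/ore3 on the left and ahk3/ore12 on the right, with 1 line per gene. Filled points passed FDR under 0.05 over all genes and open points did not. In ein2/ore3 7 genes are filled at 1 DAT, and in ahk3/ore12 none is before 2 DAT.

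After 1 d of darkness 6 of the 10 genes were higher in ein2/ore3 than in Col, against 9.64% of all genes, namely BAM3 (1.52), SEX4 (1.1), MEX1 (1.06), GWD1 (0.93), ISA3 (0.83) and DPE2 (0.67), and BAM1 was lower (-0.69). BAM3 gave the clearest separation, with 13.85 and 14.11 in ein2/ore3 against 12.13 and 12.78 in Col (SE 0.239, adjusted p = 5.2e-04). The calls of MEX1, GWD1 and ISA3 were lost without Col 1 DAT replicate 1 (0.72, 0.77 and 0.69, with adjusted p of 0.151, 0.0756 and 0.0706) and without ein2/ore3 1 DAT replicate 2, those of MEX1, GWD1 and DPE2 also without ein2/ore3 1 DAT replicate 1, and those of BAM3, SEX4 and BAM1 under no array left out. At 2 DAT 6 of 10 were higher, against 10.4%, with DPE1 (1.71), MEX1 (1.24), BAM3 (1.23), GWD1 (1.01), SEX4 (0.94) and DPE2 (0.46), and BAM1 was again lower (-0.45). Of these all but DPE1 and BAM3 lost their call without Col 2 DAT replicate 1, where MEX1 gave 0.89 (adjusted p = 0.103) and GWD1 0.78 (adjusted p = 0.0844). DPE2 also lost it without Col 2 DAT replicate 2 or ein2/ore3 2 DAT replicate 1, and BAM1 without ein2/ore3 2 DAT replicate 2.

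At 3 DAT 8 of 10 members were higher in ein2/ore3 than in Col, against 14.4%, and BAM1 was lower (-0.45), against 10.7%. The 3 DAT differences were 2.81 for DPE1, 1.96 for BAM3, 1.82 for SEX4, 1.72 for MEX1, 1.47 for GWD1, 0.86 for DPE2, 0.77 for PWD and 0.73 for ISA3. DPE1 stood furthest apart, with 11.65 and 11.74 against 8.74 and 9.03, a 7.01-fold difference (SE 0.246, adjusted p = 9.7e-07). ISA3 lost its call without Col 3 DAT replicate 1 (0.43, adjusted p = 0.231) or ein2/ore3 3 DAT replicate 2 (0.53, adjusted p = 0.148), and BAM1 without Col 3 DAT replicate 1 (-0.40, adjusted p = 0.111) or ein2/ore3 3 DAT replicate 1 (-0.42, adjusted p = 0.0878). BAM5 did not differ past the test (0.10, interval -0.59 to 0.80). The root marker PYK10 was also higher in ein2/ore3 than in Col at 3 DAT, by 3.58, and the 4 mesophyll markers were all higher. PYK10 itself rose from 0 to 3 DAT in every genotype, by 2.1 in Col, 5.03 in ein2/ore3 and 4.22 in ahk3/ore12. Of the 4 phloem markers SUC2 was higher (1.82), APL was lower (-0.51), and SEOR1 (0.26) and AHA3 (0.03) did not pass the test. Of the 4 guard cell markers KAT1 was lower (-0.77), and MYB60 (0.05), FAMA (-0.40) and HT1 (-0.63) did not pass. Their summed level was 11.64 to 11.80 in ein2/ore3 and 12.31 to 12.32 in Col, and at 0 DAT 11.92 to 12.08 and 12.36 to 12.41. Of the 2 epidermis markers ATML1 was higher (1.22) and PDF1 (-0.17) did not pass. The part of these markers in the differences of the starch genes was not tested.

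Between ahk3/ore12 and Col no member passed the test on the first day. At 1 DAT 0 of the 10 genes passed the test, against 0.631% of all genes (limma, with 1 of 10, BAM1, at an unadjusted p under 0.05, and 0 without moderation of the spread), and the intervals of GWD1 (-0.30 to 0.69) and SEX4 (-0.43 to 0.58) reach to both sides of 0. At 2 DAT DPE1 (1.49) and DPE2 (0.51) were higher, 2 of 10 against 8.85% of all genes, and BAM1 was lower (-0.42). DPE1 was at 11.54 and 12.18 against 10.18 and 10.56. The DPE2 and BAM1 calls were lost without either Col 2 DAT array or without ahk3/ore12 2 DAT replicate 2 (0.35 and -0.34), and that of BAM1 also without replicate 1. At 3 DAT 6 of 10 were higher, against 14.8%, with DPE1 at 2.31, BAM3 at 1.40, SEX4 at 1.36, GWD1 at 0.96, PWD at 0.83 and DPE2 at 0.79, and BAM1 was lower (-0.70), against 8.36%. MEX1 (0.72, adjusted p = 0.096) and ISA3 (0.47, adjusted p = 0.109) did not pass, and both passed with the replicate number as a block (adjusted p = 0.0211 and 0.0296). ISA3 also passed without Col 3 DAT replicate 2 (0.77) or ahk3/ore12 3 DAT replicate 1 (0.74). GWD1 lost its call without ahk3/ore12 3 DAT replicate 2 (0.54, adjusted p = 0.114) or Col 3 DAT replicate 1 (0.88, adjusted p = 0.0684). At 3 DAT 2 of the 4 mesophyll markers and 1 of the 4 phloem markers, SUC2 (1.34), were higher in ahk3/ore12 than in Col, while SEOR1 (-0.44), APL (0.03) and AHA3 (0.17) did not pass the test, and their part was not tested.

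Whether the change in darkness itself differed was tested as the difference between a mutant's change and that of Col from 0 to 3 DAT. For ein2/ore3 it passed as higher, toward a smaller fall than in Col or none, for 7 of 10 genes against 10.5% of all genes, and as lower, a smaller rise, for BAM1 (-0.62), against 5.69%. DPE1 gave 2.97 (SE 0.348, adjusted p = 4.7e-05), BAM3 1.98, SEX4 1.82, MEX1 1.68, GWD1 1.63, PWD 1.04 and DPE2 0.85. ISA3 (0.70, adjusted p = 0.122) and BAM5 (-0.47) did not pass, and ISA3 passed with the replicate block (adjusted p = 0.0292) and without Col 3 DAT replicate 2 (1.00, adjusted p = 0.0286). MEX1 lost its call without Col 3 DAT replicate 1 (1.41, adjusted p = 0.0643), BAM1 lost it without any of 5 arrays in turn (Col 0 and 3 DAT replicate 1, both ein2/ore3 0 DAT arrays and ein2/ore3 3 DAT replicate 1, with values from -0.64 to -0.57), and BAM5 passed without ein2/ore3 0 DAT replicate 1 (-1.19, adjusted p = 0.0191). At earlier times the same difference passed for BAM3 (1.54, adjusted p = 0.0153) and BAM1 (-0.86, adjusted p = 0.00988) by 1 DAT, 2 of 10 against 5.67% of all genes, and for DPE1 (1.88), BAM3 (1.24), GWD1 (1.16) and BAM1 (-0.62) by 2 DAT, 4 of 10 against 11.1%.

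For ahk3/ore12 the test passed as higher for 6 of 10 genes against 9.96% of all genes, and for BAM1 as lower (-0.77), against 3.34%. DPE1 again had the largest value, 2.33 (SE 0.348, adjusted p = 5.8e-04), followed by SEX4 (1.35), BAM3 (1.24), GWD1 (1.05), PWD (0.91) and DPE2 (0.80). The call of GWD1 was lost with quantile normalization (adjusted p = 0.0645), with median centring (adjusted p = 0.0517), without moderation of the spread (adjusted p = 0.0638) and with the arrays of both genotypes alone (adjusted p = 0.103). BAM3 also lost its call in the last of these fits (adjusted p = 0.0626). Of the 7 genes only DPE1 and BAM1 were within FDR under 0.01. Leaving out the first replicate of Col at 3 DAT left 2 of 10 genes past the test in either direction, and leaving out that of Col at 0 DAT, or ahk3/ore12 3 DAT replicate 2, left 3. By 2 DAT the difference passed for DPE1 (1.52, adjusted p = 0.0192), 1 of 10 against 5.67%.

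Between the mutants few genes differed. At 1 DAT SEX4 (1.03, adjusted p = 0.0108) and BAM3 (1.23, adjusted p = 0.00389) were higher in ein2/ore3 than in ahk3/ore12, 2 of 10 against 7.02% of all genes, and the same 2 genes passed at 2 DAT (0.79 and 0.87), against 3.9%. At 3 DAT MEX1 alone passed (1.01, SE 0.296, adjusted p = 0.0426), 1 of 10 against 4.88%, with 12.26 and 12.25 in the former against 10.99 and 11.51. The change from 0 to 1 DAT differed between the mutants for BAM3 (1.41, adjusted p = 0.0353), 1 of 10 against 3.21%. None of these calls between the mutants was examined with arrays left out or under other settings. On the 2 slides SEX4 gave 1.24 and 0.33 at 2 DAT, and MEX1 gave 1.27 and 0.74 at 3 DAT. The changes from 0 to 3 DAT did not differ between the mutants past the test for any of the 10 genes, against 5.01% of all genes (limma, with 2 of 10, BAM3 and MEX1, at an unadjusted p under 0.05, and 0 without moderation of the spread). These intervals are wide, from 0.10 to 1.88 for MEX1 and from -0.11 to 1.38 for DPE1, so differences of that size remain possible. The methods name an ANOVA with genotype and time as factors and do not say whether an interaction was included. Here additive terms for genotype and time only were fitted in limma over all genes to the 16 arrays of a mutant and Col. The genotype term called 8 of 10 genes in ein2/ore3, all but PWD and BAM5, against 19.2% of all genes. In ahk3/ore12 it called DPE1, DPE2 and BAM1, 3 of 10 against 8.97% of all genes.

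Other starch genes were taken from lists by function. Of 18 further genes of breakdown, 11 fell and 4 rose from 0 to 3 DAT in Col, against 19.3% and 20.2% of all genes, with a median of -1.55 (median of all genes 0.14). The share that rose is thus near that of all genes. PHS2, the cytosolic glucan phosphorylase, fell by 5.37 (SE 0.271), BAM6, a further β-amylase, fell by 4.32 and AMY3, the chloroplast α-amylase, fell by 3.95. AMY1, a secreted α-amylase, went from 7.94 and 7.50 to 12.85 and 12.75 over 3 days in Col, a rise of 5.08 (SE 0.453, adjusted p = 2.5e-07), and BAM9, a β-amylase-like protein without activity, and AMY2, an α-amylase, rose by 2.32 and 2.13. The rise of AMY1 was smaller in ein2/ore3 (difference of changes -3.46, SE 0.640) and ahk3/ore12 (-3.11, SE 0.640), as for the member BAM1. Over the 18 genes the difference of changes passed as higher for 8 and as lower for 2 in ein2/ore3, against 10.5% and 5.69% of all genes. In ahk3/ore12 it passed as higher for 3 and as lower for 2, against 9.96% and 3.34%, and 13 did not pass. AMY2 rose in ahk3/ore12 (1.18) and gave 0.08 in ein2/ore3, and that difference between the mutants passed the test (-1.1, adjusted p = 0.0221).

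All 17 genes of starch synthesis fell in Col over 3 days, with a median of -2.17, while 15 fell in ein2/ore3 and all 17 in ahk3/ore12, against 19.3%, 14.6% and 13.9% of all genes. GBSS1, which makes amylose, fell by 5.53 (SE 0.348) to 6.02 and 6.21, within the dim range, APL1, a large subunit of ADP-glucose pyrophosphorylase, fell by 5.29 and PGM1, the plastid phosphoglucomutase, fell by 4.57. The change of 11 of the 17 differed from Col in ein2/ore3 and that of 9 in ahk3/ore12, each toward a smaller fall, against 10.5% and 9.96% of all genes. Of 6 genes that use the exported sugar in the cytosol, 2 fell in Col at 3 DAT, against 19.3% of all genes. They were UGP2, a UDP-glucose pyrophosphorylase (-1.56), and PGM2, a cytosolic phosphoglucomutase (-0.52), and none rose. Each mutant had 4 of the 6 lower and none higher, against 14.6% and 13.9% of all genes lower. The median change was -0.14 in Col, -0.61 in ein2/ore3 and -0.49 in ahk3/ore12, so the median showed no smaller fall in the mutants. UGP2 did fall less in ein2/ore3 than in Col, since the lowest change of the list in ein2/ore3 was -0.98. At 3 DAT 1 of the 6 was higher in ein2/ore3 than in Col and 2 were lower, against 14.4% and 10.7% of all genes. Against Col, the change passed as lower for 1 of the 6 with ein2/ore3 and for none with ahk3/ore12. Those shares stand against 5.69% and 3.34% of all genes, and none passed as higher.

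**Figure D4:**
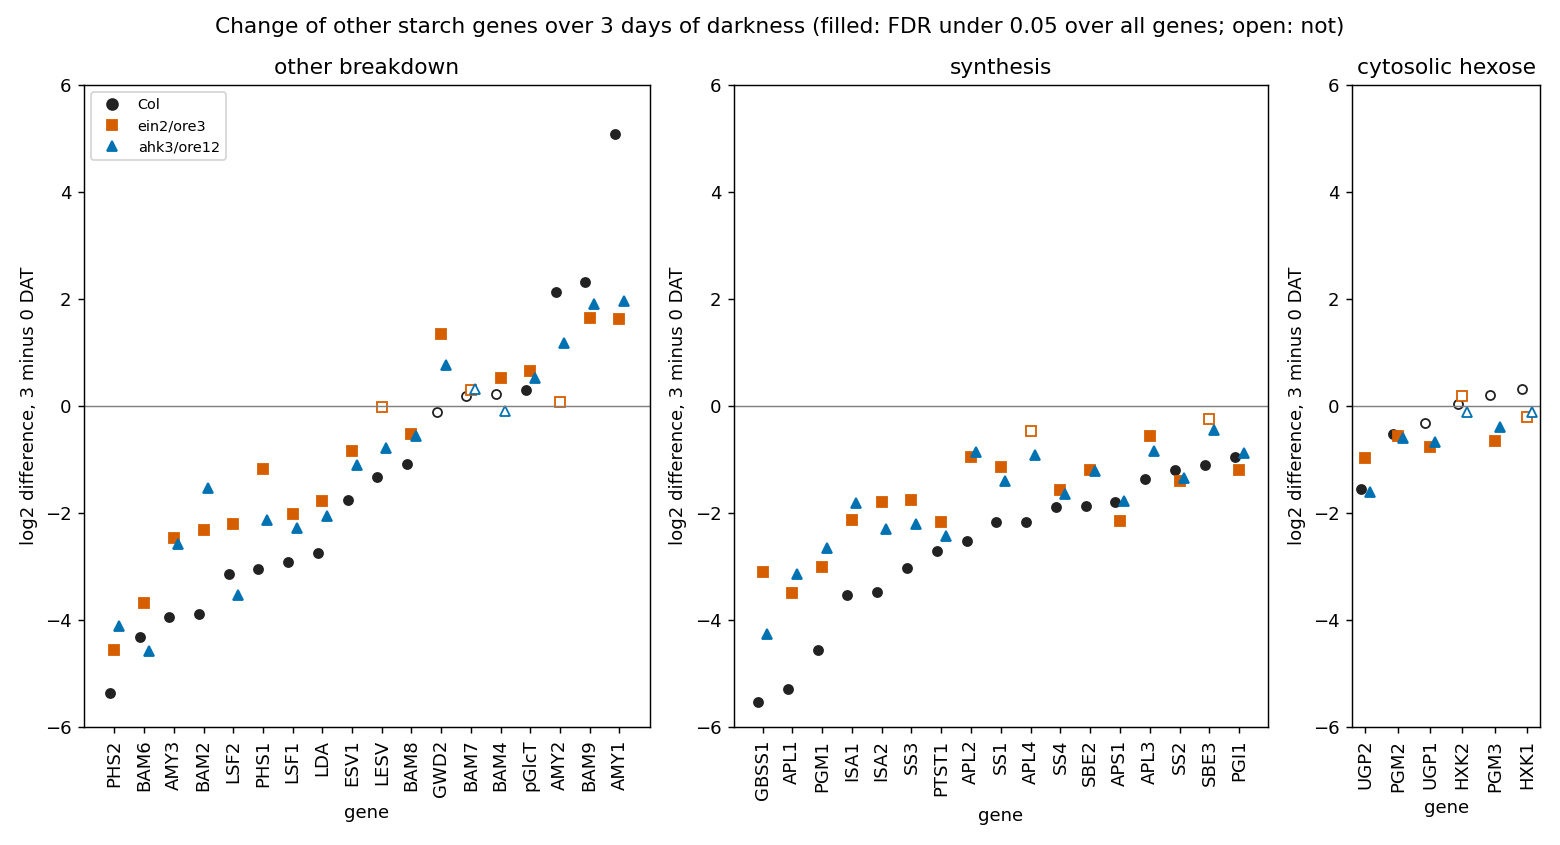
Log2 difference between 3 and 0 DAT (y axis) for 18 other genes of starch breakdown, 17 of starch synthesis and 6 of cytosolic hexose use (x axis, ordered by the value in Col), in the 3 genotypes. Filled points passed FDR under 0.05 over all genes. In Col the breakdown genes run from -5.37 for PHS2 to 5.08 for AMY1, and all 17 synthesis genes lie below 0.

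Over the 12 condition means SEX4 and ISA3 followed each other closely (Pearson's r = 0.988), and each was the gene of the whole array most like the other. MEX1 and BAM3 correlated at 0.96. PWD, whose values spanned the smallest range, correlated at 0.182 with BAM5, 0.396 with DPE2 and 0.751 with BAM3. BAM1 was negatively correlated with the other members, down to -0.932 with ISA3. Among all genes the pair nearest to each member was as follows. DPE2 was most like AT3G47070 (r = 0.998) and AT5G22620 (r = 0.997), and DPE1 most like LHCA2 (r = 0.996) and LHB1B2 (r = 0.995), which encode chlorophyll-binding proteins of the light-harvesting antennae. MEX1 was nearest to AT1G34640 (r = 0.994) and AT1G63240 (r = 0.991), GWD1 to AT4G28706 (r = 0.993) and AT4G36530 (r = 0.992), and BAM3 to AT1G75370 (r = 0.985) and UMAMIT44 (r = 0.983). After each other, SEX4 was nearest to the chloroplast gene ATCG00820 (r = 0.988) and ISA3 to PSBQA (r = 0.983), a protein of photosystem II. BAM1 was nearest to TBL9 (r = 0.979) and AT1G63840 (r = 0.972). For PWD and BAM5 no gene reached an r of 0.95. These values describe 12 means that share the same leaves and arrays, and no p is given for them.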

How the data were processed

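Total RNA of detached leaves was labelled with Cy3 and hybridized to NimbleGen arrays of 37118 transcript variants with 1 to 4 probes each. The authors scanned the arrays and processed them with NimbleScan 2.5, and the deposited array files hold their RMA intensity per variant on a linear scale, background-corrected and quantile-normalized, with the number of probes as a further column. The deposited series table holds the authors' log2 values per gene to 2 decimals, which differ from the log2 of the summed variant intensities by at most 0.00514. Those log2 values of 32627 genes were used without further normalization or filter. The files hold no detection calls, and coordinates and sequences were not used here.

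One limma 3.58.1 model in R 4.3.3 with 12 condition means was fitted to 24 arrays, with Benjamini and Hochberg adjustment over all genes for each contrast and FDR under 0.05. Nothing in the labels says that replicates came from separate plants, although the methods call them biological, and with 2 per condition the precision rests on the spread pooled over conditions. The number of arrays limits the precision. The procedure was run on simulated data with independent noise for each array. That simulation left out the sharing of deviations between arrays described next, so it does not show error rates under it. Replicate deviations from condition means correlated over 66 pairs of conditions with a median of 0.302 (47 over 0.1, 2 under -0.1), and the replicate number marks a slide, so it was also fitted as a block. The other alternatives were other FDR thresholds, summed or brightest variants, quantile normalization, median centring, no dim genes, no moderation, fewer arrays in the fit, and each array left out in turn, its partner then being assumed to vary like the other pairs. All 10 members are named. From each list of other starch genes the 3 largest called changes in each direction in Col at 3 DAT are named, and for each member the 2 genes of the most similar course are named where r is at least 0.95. The rule for the members names loci and uses no values, but the members and lists were chosen with earlier results of these data known.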

Additional observations from a re-analysis of the deposited data

Results flagged for a closer look

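For 15 results the change from 0 to 3 DAT differed between a mutant and Col by the interaction test (limma, FDR under 0.05 over all genes). In ein2/ore3 the difference of changes, mutant minus Col, was 1.63 for GWD1, 1.04 for PWD, 1.82 for SEX4, 1.98 for BAM3, 2.97 for DPE1, 0.85 for DPE2 and 1.68 for MEX1, with adjusted p between 4.7e-05 and 0.0121, and -0.62 for BAM1 (adjusted p = 0.0253). In ahk3/ore12 it was 1.05 for GWD1, 0.91 for PWD, 1.35 for SEX4, 1.24 for BAM3, 2.33 for DPE1 and 0.80 for DPE2, with adjusted p between 5.8e-04 and 0.0476, and -0.77 for BAM1 (adjusted p = 0.00965). Both sets share the Col arrays.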

How the results depend on the processing

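Of 200 differences of single members examined under the other settings, 161 kept their call and direction in every setting, and no called difference changed sign. Steps between successive days, differences between the mutants at single times, and differences of changes to 1 or 2 DAT were not among them. Counts were taken of members called at 3 DAT, in the Col time course and by the genotype terms. Some moved by more than 1.5 times in settings other than leaving out an array, as follows. Without moderation of the spread the Col time course called 4 members and the genotype term of ahk3/ore12 called 0, of 7 and 3. At FDR under 0.01 the change to 3 DAT in ahk3/ore12 minus that in Col was called for 2 of 10, the genotype term of ein2/ore3 for 5 and that of ahk3/ore12 for 0. With the replicate block 9 members were called for ahk3/ore12 against Col at 3 DAT in place of 7 and 9 for the change to 3 DAT in ein2/ore3 minus that in Col in place of 8. It also added DPE1 in ein2/ore3 against Col at 1 DAT (0.68, adjusted p = 0.0319), ended no call of a member and moved none of these counts by over 1.5 times.

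When single arrays were dropped, the counts ranged from 2 to 7 for the change to 3 DAT in ahk3/ore12 minus that in Col, 6 to 9 for that in ein2/ore3, 3 to 7 for the Col time course, and 0 to 4 for the genotype term of ahk3/ore12. The time course fell to 3 without Col 0 DAT replicate 1, and to 4 without Col 0 DAT replicate 2, either Col 2 DAT array or Col 3 DAT replicate 1. The genotype term of ahk3/ore12 fell to 0 without 11 of its arrays in turn: Col 1 DAT replicate 1, both arrays of Col at 2 and 3 DAT, and both arrays of ahk3/ore12 at 1, 2 and 3 DAT. The value for GWD1 in the change of ahk3/ore12 minus that of Col lost its call in most of these fits (0.62, adjusted p = 0.185, without ahk3/ore12 3 DAT replicate 2). Dim signal limits BAM5 and the lowest values of SEX4.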
